A study of Caenorhabditis elegans with 6 samples.

Results

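The sarcomere genes described here are 10 genes of *Caenorhabditis elegans* that encode proteins of the thick and thin filaments of muscle: the myosin heavy chains *unc-54*, *myo-3*, *myo-1* and *myo-2*, paramyosin (*unc-15*), the regulatory light chains *mlc-1* and *mlc-2*, twitchin (*unc-22*), tropomyosin (*lev-11*) and troponin I (*unc-27*). They were taken by gene name from the deposited table, which lists 105 exons for them among 53267 exons of 12798 genes. RNA of whole worms grown on OP50 bacteria at 20 °C was measured in 6 libraries, 1 for each condition, in a study of *sdhb-1*, the iron-sulfur subunit of succinate dehydrogenase. The *sdhb-1(gk165)* library (gk165) was made from L2 larvae with a deletion that takes out all or part of exons 1 to 5 and stops development at that stage, and its controls were L2 and L3 larvae of the wild-type strain N2, WT (L2) and WT (L3). The R244H library was made from L4 larvae with a genomic *sdhb-1* transgene carrying the Arg244His change, and its controls were L4 larvae with the wild-type transgene on the *gk165* deletion (WTR) and N2 larvae at L4, WT (L4). The label gives R244H the genotype *sdhb-1(gk165)/mIn1;R244H* and WTR the genotype *sdhb-1(gk165);WTR*, so the balancer is named for R244H and not for WTR. In the strain list that balancer carries *dpy-10(e128)* and a *myo-2::gfp* marker, and both transgenes were integrated on chromosome X with an *unc-119(+)* marker. Many worms were pooled in each library. Whole-worm RNA cannot tell fewer muscle cells from less RNA per muscle cell.

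In striated muscle, myosin heavy chains assemble with light chains into thick filaments that pull on thin filaments of actin, and calcium acting through troponin and tropomyosin switches the pulling on. Body wall muscle of the worm builds its thick filaments from myosin B (*unc-54*) and myosin A (*myo-3*) around a core of paramyosin, while the pharynx, the feeding pump, has its own heavy chains, *myo-1* and *myo-2*. Twitchin is a giant kinase of the titin family that lies along the thick filament and regulates relaxation.

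Recovered reads fell in steps of 0.5, and how reads shared between exons were counted is not given in the sources used here. The total recovered from the table was 279254 reads in gk165, 188742 in WT (L2), 580259 in WT (L3), 405789 in R244H, 542503 in WTR and 867446 in WT (L4). Between 7.87% and 50.3% of the listed exons had no read in a given library. With 1 library for each condition there is no replicate check, so a ratio compares a pair of libraries, and the 95% intervals given (exact binomial) cover counting error only. *sdhb-1* itself had 15.2 RPKM (reads scaled for exon length and library size) in gk165 (5 reads), against 116 in WT (L2) (32 reads) and 214 in WT (L3) (142 reads). It had 146 RPKM in R244H (68 reads), against 70.9 in WTR (44 reads) and 174 in WT (L4) (165 reads). The summed level of 8 germline genes was 118 RPKM in R244H, against 1106 in WTR and 1110 in WT (L4), and all 8 were at least 2-fold lower in R244H than in either control, with none at 0 reads in these 3 libraries. Over all genes, 34.2% were at least 2-fold lower than in WTR and 33.8% lower than in WT (L4).

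The 10 genes are given on assembly WBcel235. The heavy chain gene *unc-54* (WBGene00006789) lies on the minus strand of chromosome I from 14855901 to 14863573, with 9 listed exons of 6295 bases in all. The other body wall heavy chain gene, *myo-3* (WBGene00003515), lies on the minus strand of chromosome V from 12226816 to 12234343, with 7 exons and 6105 bases. The pharyngeal *myo-1* (WBGene00002348) is on the minus strand of chromosome I from 7258915 to 7267117, with 9 exons and 6548 bases. The second pharyngeal gene, *myo-2* (WBGene00003514), is on the plus strand of chromosome X from 12468061 to 12475348, with 12 exons and 6334 bases. The heavy chain genes thus differ little in listed length. Paramyosin, *unc-15* (WBGene00006754), lies on the minus strand of chromosome I from 7376604 to 7383197, with 11 exons and 3424 bases. Twitchin, *unc-22* (WBGene00006759), on the minus strand of chromosome IV from 11972697 to 12011007, is the longest of the 10, with 28 of 37 numbered exons in the table and 21508 bases. Tropomyosin, *lev-11* (WBGene00002978), is on the minus strand of chromosome I from 14621173 to 14631254, with 15 exons and 2505 bases. Troponin I, *unc-27* (WBGene00006764), is on the plus strand of chromosome X from 8789456 to 8790621, with 5 exons and 933 bases. The light chain genes lie near each other on chromosome X. The first, *mlc-1* (WBGene00003369), has 5 exons and 1250 bases on the plus strand from 17459115 to 17460778, and *mlc-2* (WBGene00003370) has 4 exons and 654 bases on the minus strand from 17455779 to 17456586. A gap of 2528 bases, with 2 other annotated genes in it, separates them. They encode nearly identical proteins, so reads could have been split between the pair and their single values are uncertain. Exons of *myo-1* (1), *mlc-1*, *mlc-2* and *unc-22* (2 exons) overlap another annotated gene, and whether strand was used in counting is not given in the sources used here.

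Together the 10 genes took 0.585% of the reads in gk165 (95% interval 0.557 to 0.614), against 1.56% in WT (L2) (1.51 to 1.62) and 2.25% in WT (L3) (2.21 to 2.29). In R244H they took 2.08% (2.04 to 2.13), against 1.72% in WTR (1.68 to 1.75) and 2.39% in WT (L4) (2.35 to 2.42). The gk165 share was the lowest of the 6 libraries, and the R244H share lay between its controls.

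Levels are given in RPKM from reads pooled over the listed exons of a gene. In WT (L4) the order of levels was *unc-54* (1835 RPKM), *lev-11* (1540), *mlc-2* (1512), *unc-27* (1359), *unc-15* (1184) and *mlc-1* (989), then *myo-3* (96.9), *myo-2* (93.6), *myo-1* (75.6) and *unc-22* (57.7). The first 6 genes were separated from the last 4 by a wide gap in every library, so *unc-54* stood far above the other 3 heavy chains. Neighbours whose counting intervals did not separate them in WT (L4) were *lev-11* with *mlc-2* and *myo-3* with *myo-2*. In gk165 the order was different, with *mlc-2* (617 RPKM), *unc-27* (574), *lev-11* (517), *mlc-1* (426), *unc-54* (280), *unc-15* (196), *myo-3* (58.1), *myo-2* (13.7), *myo-1* (11.6) and *unc-22* (9.003). There the neighbours *mlc-2* and *unc-27* did not separate, nor did *unc-27* and *lev-11*, *myo-2* and *myo-1*, or *myo-1* and *unc-22*. In R244H the pairs *mlc-2* with *unc-54* and *unc-22* with *myo-1* did not separate.

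The main body wall heavy chain, *unc-54*, had 280 RPKM in gk165, against 719 in WT (L2) larvae and 1362 in WT (L3) larvae. In the L4 libraries it had 1462 RPKM in R244H, against 1141 in WTR and 1835 in WT (L4). The gk165 value was the lowest of all 6, and R244H lay between its controls. The log2 ratio of RPKM + 1 was -1.36 when gk165 was set against WT (L2), with counting limits of -1.52 and -1.20, and -2.28 against WT (L3). For R244H it was 0.36 to WTR (0.29 to 0.42) and -0.33 to WT (L4).

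The minor body wall heavy chain, *myo-3*, which starts filament assembly at the centre of the thick filament, did not follow *unc-54*. It had 58.1 RPKM in gk165, against 52.9 in WT (L2) and 102 in WT (L3). Among the L4 libraries it had 108 RPKM in R244H, against 51.2 in WTR and 96.9 in WT (L4). In gk165 it thus did not separate from WT (L2), with a log2 ratio of 0.13 and counting limits of -0.31 and 0.59 from 98 and 75 reads. Against WT (L3) the gk165 ratio was -0.81 (-1.16 to -0.49). The ratio of R244H was 1.06 to WTR (0.78 to 1.36) and 0.15 to WT (L4), the second not separated from 0.

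The pharyngeal heavy chains had the lowest ratios of the 10 genes in gk165. The *myo-1* level was 11.6 RPKM in gk165 (21 reads), against 51.9 in WT (L2) (79 reads) and 133 in WT (L3) (484 reads). The *myo-2* level was 13.7 RPKM in gk165 (24 reads), against 88.3 in WT (L2) (130 reads) and 159 in WT (L3) (561 reads). Both genes were therefore several-fold lower in gk165 than in either wild-type library. To WT (L2) the log2 ratio was -2.07 for *myo-1* (-2.93 to -1.45) and -2.60 for *myo-2* (-3.38 to -2.05), and to WT (L3) the ratios were -3.41 for *myo-1* and -3.44 for *myo-2*. In R244H *myo-1* had 56.6 RPKM, against 28.4 in WTR and 75.6 in WT (L4). In R244H *myo-2* had 71.8 RPKM, against 41.1 in WTR and 93.6 in WT (L4). R244H was between its controls for both genes, with log2 ratios to WTR of 0.97 for *myo-1* (0.61 to 1.38) and 0.79 for *myo-2* (0.47 to 1.136). Whether the *myo-2::gfp* marker of the balancer adds reads to *myo-2* was not tested.

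Paramyosin, *unc-15*, had 196 RPKM in gk165, against 486 in WT (L2) and 862 in WT (L3). Among the L4 libraries it had 985 RPKM in R244H, against 782 in WTR and 1184 in WT (L4). Its ratios were close to those of *unc-54*, at -1.31 against WT (L2) (-1.58 to -1.06) and -2.13 against WT (L3) in gk165, and 0.33 for R244H to WTR (0.22 to 0.44). Twitchin, *unc-22*, had 9.003 RPKM in gk165 (53.5 reads), against 20.1 in WT (L2) and 50.7 in WT (L3). Among the L4 libraries it had 59.0 RPKM in R244H, against 26.7 in WTR and 57.7 in WT (L4). R244H and WT (L4) thus differed by less than counting error and WTR was lower, with log2 ratios for R244H of 1.12 to WTR (0.94 to 1.36) and 0.03 to WT (L4) (-0.13 to 0.19).

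Among the regulatory light chains, *mlc-1* had 426 RPKM in gk165, against 637 in WT (L2) and 1092 in WT (L3). For its partner *mlc-2* the level was 617 RPKM in gk165, against 1484 in WT (L2) and 2201 in WT (L3). Both were lowest in gk165, with log2 ratios to WT (L2) of -0.58 for *mlc-1* (-0.90 to -0.26) and -1.26 for *mlc-2* (-1.60 to -0.92). With the reads of the pair summed the ratio was -0.92. In the L4 libraries *mlc-1* had 732 RPKM in R244H, against 920 in WTR and 989 in WT (L4). In the same libraries *mlc-2* had 1502 RPKM in R244H, against 1434 in WTR and 1512 in WT (L4). The *mlc-1* ratio of R244H to WTR was -0.33 (-0.52 to -0.14), the only one of the 10 whose interval lay below 0, whereas that of *mlc-2* was 0.07 (-0.13 to 0.27).

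On the thin filament, *lev-11* had 517 RPKM in gk165, against 935 in WT (L2) and 1658 in WT (L3). In R244H the level was 1307 RPKM, against 1370 in WTR and 1540 in WT (L4). The troponin I gene *unc-27* had 574 RPKM in gk165, against 789 in WT (L2) and 1432 in WT (L3). In R244H the level was 1158 RPKM, against 1226 in WTR and 1359 in WT (L4). These short genes were lower in gk165 than in both wild-type libraries by less than *unc-54*, *myo-1* and *myo-2*, with log2 ratios to WT (L2) of -0.85 for *lev-11* (-1.05 to -0.66) and -0.46 for *unc-27* (-0.79 to -0.13). R244H and WTR did not separate, with ratios of -0.07 for *lev-11* (-0.17 to 0.04) and -0.08 for *unc-27* (-0.27 to 0.10).

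**Figure D1:**
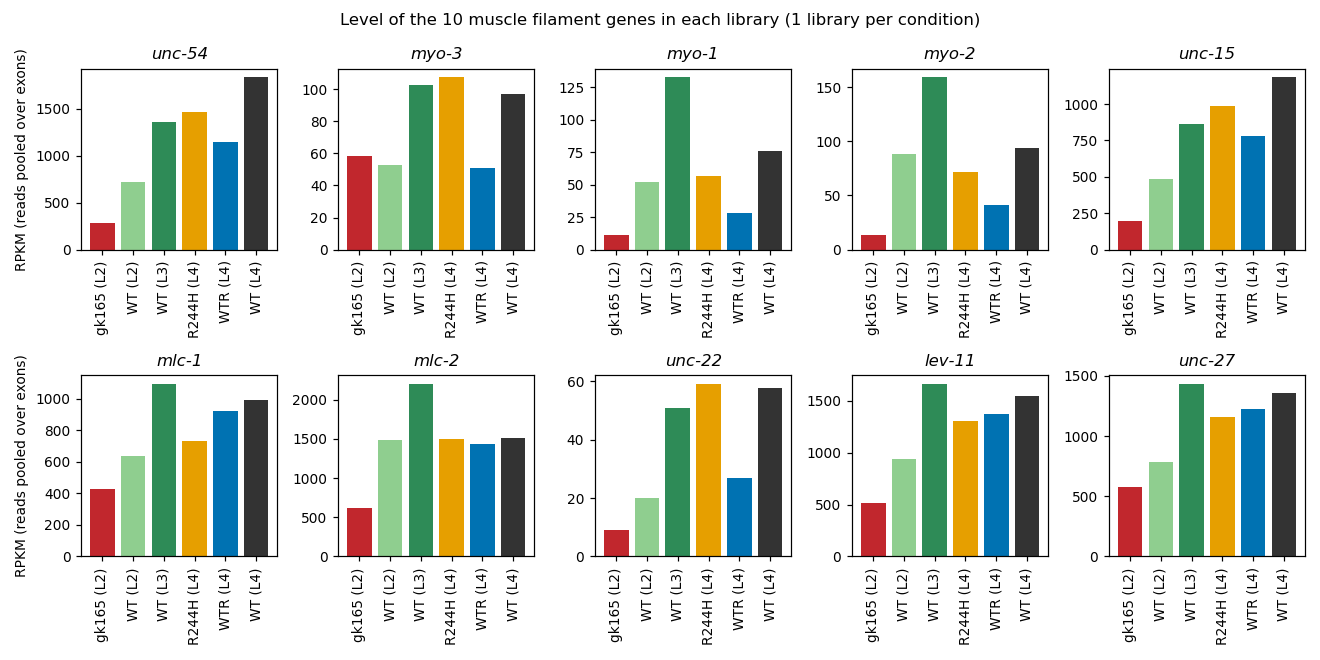
Level of each of the 10 genes in RPKM (vertical axes starting at 0, 1 panel per gene), 1 bar for each of the 6 libraries, with gk165 left of its wild-type controls and R244H left of WTR and WT (L4). The gk165 bar is the lowest for every gene except *myo-3*, where it stands at 58.1 RPKM beside 52.9 in WT (L2) and 51.2 in WTR.

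A gene was counted as higher or lower when its RPKM + 1 differed at least 2-fold between libraries and it had at least 5 RPKM in 1 of them. All 10 genes reached that level in each of the comparisons. Of the 10 genes, gk165 had 6 below WT (L2), against a background of 27.8% of 10551 genes, and 0 above it, against 34.2%. The 6 were *unc-54*, *myo-1*, *myo-2*, *unc-15*, *mlc-2* and *unc-22*. Against WT (L3), 9 of the 10 were lower, *myo-3* being the exception (background 34.7%), and 0 were higher (23.1%). The background differed with length. Of genes with 4000 or more listed bases, the class of the heavy chains and *unc-22*, 42.0% were lower than in WT (L2) and 68.3% lower than in WT (L3). From 1000 bases up to 4000 these shares were 29.8% and 39.2%, and under 1000 bases 24.8% and 27.8%. The median log2 ratio of the 10 was -1.17 to WT (L2), where that of all genes was 0.18, and -1.98 to WT (L3), where that of all genes was -0.30. The same 6 genes were lower than both controls, where 22.2% of 11290 genes were, and 0 were higher than both (18.4%). The gk165 library enters both comparisons, so they are not independent.

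In R244H, 0 of the 10 genes were higher than WT (L4) (background 17.8%) and 0 were lower (33.8%). The median of the 10 was -0.25, with -0.33 for all genes. Of the 10 intervals 7 lay below 0, but the share of all genes with such an interval was not counted. Against WTR, 2 genes were higher, *myo-3* and *unc-22* (background 21.9%), and 0 were lower (34.2%). The median of the 10 was 0.35, with -0.30 for all genes. None of the 10 differed 2-fold from both L4 controls in the same direction, where 13% of genes were higher and 28.1% lower. Between the controls themselves, 3 genes were lower in WTR than in WT (L4), *myo-1* (log2 ratio -1.38), *myo-2* (-1.17) and *unc-22* (-1.08), where 11.6% of genes were lower, and 0 were higher (9.57%). The median of the 10 was -0.64, whereas that of all genes was -0.00. The genes 2-fold higher in R244H than in WTR, *myo-3* and *unc-22*, had ratios of WTR to WT (L4) of -0.91 and -1.08 over all exons. On the 3′-most exon alone these were -0.22 (-1.02 to 0.55) and 0.13 (-0.27 to 0.52). The part of the WTR library in the R244H differences was not tested.

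**Figure D2:**
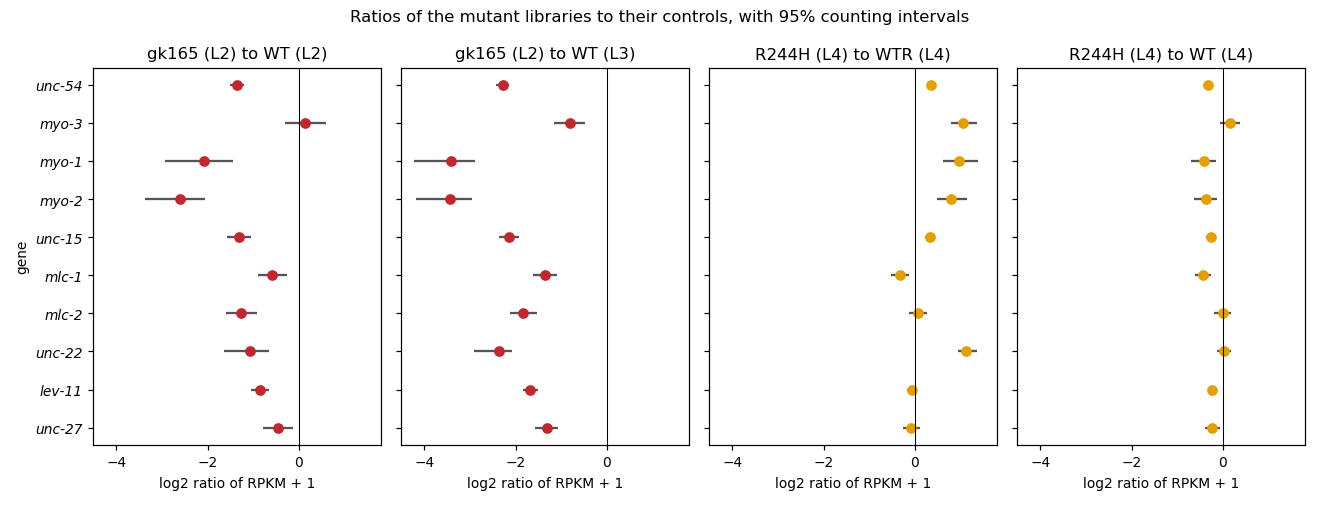
Log2 ratio of RPKM + 1 of each gene for gk165 and R244H to each control (points, horizontal axes), with 95% counting intervals as bars and a vertical line at no change. In the panels of gk165 the points of 9 genes lie left of the line for WT (L2) and those of all 10 for WT (L3), while in R244H they reach 1.12 (*unc-22*) to WTR and lie between -0.43 and 0.15 to WT (L4).

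Across wild-type development, the 10 genes were higher in WT (L3) than in WT (L2), with log2 ratios between 0.57 (*mlc-2*) and 1.34 (*myo-1*) and all intervals above 0. How many of all genes had an interval above 0 was not counted. Only *myo-1* and *unc-22* (1.29) passed 2-fold (background 29.2% higher), and 0 were lower (10%). The median of the 10 was 0.85, where that of all genes was 0.43. In WT (L4) compared with WT (L3), the ratio over all exons was 0.43 for *unc-54*, 0.46 for *unc-15*, -0.08 for *myo-3*, -0.80 for *myo-1* and -0.76 for *myo-2*. The ratios of *unc-54* and *unc-15* did not hold on the 3′-most exon alone, where they were -0.12 (-0.25 to 0.02) and -0.16 (-0.37 to 0.05). Those of the other heavy chains on that exon were -0.78 for *myo-3* (-1.41 to -0.15), -0.90 for *myo-1* (-1.42 to -0.43) and -1.38 for *myo-2* (-2.02 to -0.79). Over all exons, none of the 10 passed 2-fold at that step (background 26% higher and 20.4% lower). Over all exons, with L2 larvae of gk165 below L2 wild type in 9 of the 10 genes and WT (L3) above WT (L2) in 10, the gk165 values lay on the far side of WT (L2) from WT (L3) for all but *myo-3*. On the 3′-most exon *unc-27* in gk165 was above WT (L2) as well (0.28, -0.24 to 0.80). The intervals of *lev-11* (-0.55 to 0.07), *myo-2* (-3.02 to 0.63) and *unc-22* (-1.90 to 0.07) included no change there. The share of all genes with this order was not counted, and WT (L2) enters both comparisons. For genes of 4000 or more listed bases the median log2 ratio was -0.79 for gk165 to WT (L2) and 0.64 for WT (L3) to WT (L2).

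Read coverage along the genes differed between the libraries. The 5′-most exon of *unc-54* (186 bases) had 0 RPKM in gk165, against 46.3 in WT (L2) and 169 in WT (L3), and 323 in R244H, against 144 in WTR and 353 in WT (L4). Its 3′-most exon (490 bases) had 1178 RPKM in gk165, against 1805 in WT (L2) and 2793 in WT (L3), and 1465 in R244H, against 1916 in WTR and 2575 in WT (L4). So R244H was above WTR at the 5′ end of *unc-54* and below it at the 3′ end. The level over the 3′-most 500 or more bases was 23.2 times that over the 5′-most in gk165 (13.3 to 49.4), against 11.5 in WT (L2) and 9.67 in WT (L3), and 2.68 in R244H (2.32 to 3.12), against 9.70 in WTR (7.95 to 11.8) and 4.01 in WT (L4).

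The other long genes had profiles of the same kind. The 3′-most exon of *myo-3* (368 bases) had 251 RPKM in gk165, against 187 in WT (L2) and 239 in WT (L3), whereas its 5′-most exon had 0 in gk165 and in WT (L2) and 10.03 in WT (L3). In the L4 libraries the 3′-most exon of *myo-3* had 86.8 RPKM in R244H, against 120 in WTR and 139 in WT (L4), and the 5′-most exon had 42.8 in R244H, against 10.7 in WTR and 45.4 in WT (L4). The order of R244H and WTR was thus opposite at the ends of this gene, but on few reads. The 3′-most exon had 12.5 reads in R244H and 23 in WTR, with a log2 ratio of -0.46 (-1.51 to 0.63) that included no change. The 5′-most exon had 3 reads in R244H and 1 in WTR. For *unc-22*, the 3′-most exon (1050 bases) had 94.9 RPKM in R244H, against 169 in WTR and 154 in WT (L4). Its longest exon, of 9614 bases, had 64.6 RPKM in R244H, against 18.0 in WTR and 59.1 in WT (L4). An exon of 2619 bases farther upstream had 23.9 RPKM in R244H, against 1.5 in WTR and 26.98 in WT (L4). WTR was the highest of these 3 libraries at the 3′ end of *unc-22* and the lowest upstream. Of the 28 *unc-22* exons, 21 had no read in gk165, against 14 in WT (L2) and 5 in WT (L3), and 0 in R244H, against 15 in WTR and 1 in WT (L4).

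**Figure D3:**
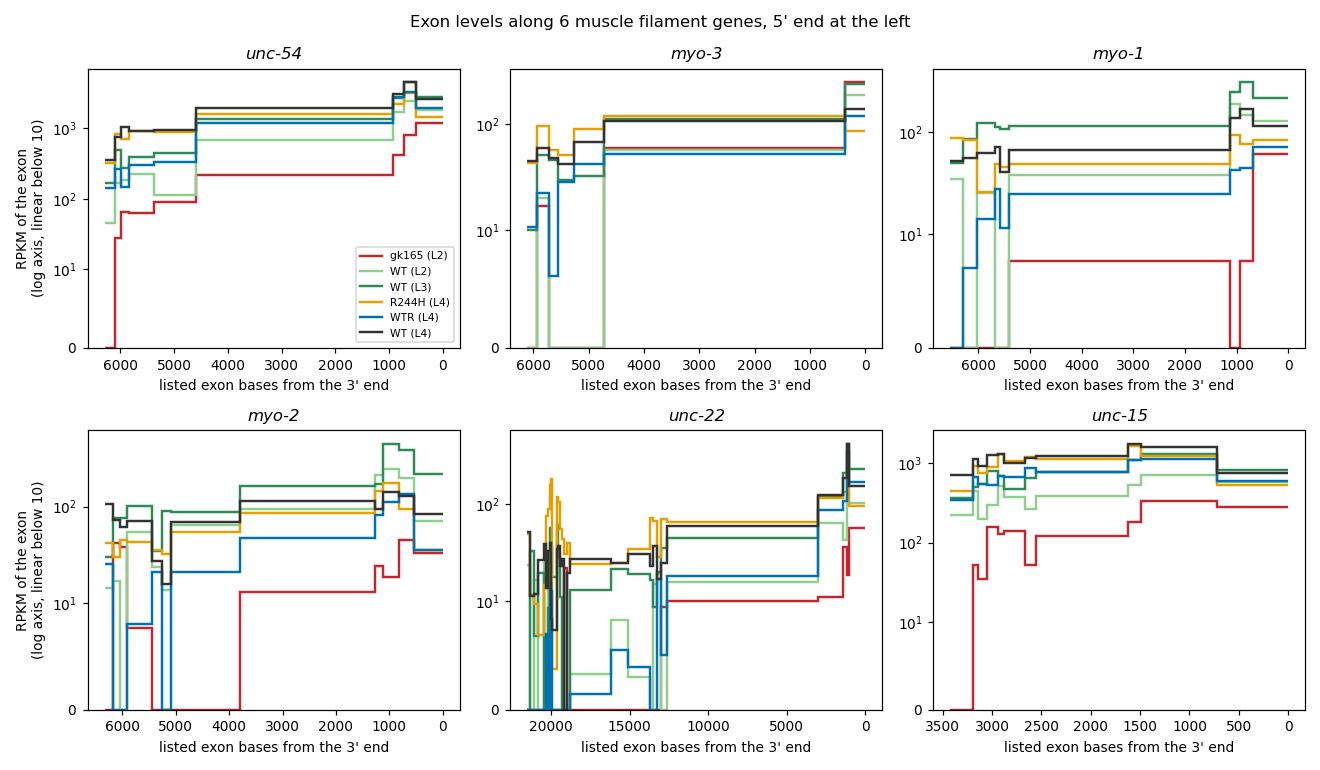
RPKM of each listed exon (vertical axes logarithmic above 10 RPKM and linear below) against the listed exon bases counted from the 3′ end, with the 5′ end at the left, for *unc-54*, *myo-3*, *myo-1*, *myo-2*, *unc-22* and *unc-15*, 1 line per library. In *unc-54* the gk165 line falls to 0 at the 5′-most exon, and in *unc-22* the WTR line is above R244H at the 3′ end (169 against 94.9 RPKM) and below it over most of the gene.

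The same coverage difference was found over the table as a whole. In 674 genes with at least 2000 listed bases and at least 10 reads in every library, the median share of reads in the exons nearer the 3′ end was 81.4% in gk165, against 71.4% in WT (L2) and 68.9% in WT (L3), and 59.5% in R244H, against 67.5% in WTR and 62.1% in WT (L4). The ratios of all genes moved with length as well. The median log2 ratio of gk165 to WT (L2) was 0.71 for genes under 1000 listed bases, -0.16 for those from 1000 bases up to 4000 and -0.79 for genes of 4000 or more. That of R244H to WTR was -0.31 in the first class, -0.33 in the next and 0.16 in the longest. All 4 heavy chain genes and *unc-22* are in the longest class. The part of length and coverage in the differences above was not tested.

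The ratios were also taken from the 3′-most listed exon alone, a choice made after the profiles were seen. On that exon gk165 was below WT (L2) by -0.61 for *unc-54* (-0.92 to -0.31), -1.07 for *myo-1*, -1.05 for *unc-15* and -1.86 for *mlc-2*. The ratio of *myo-2* was -1.08, with counting limits of -3.02 and 0.63, and those of *myo-3* (0.42) and *unc-27* (0.28) were above 0. The median of the 10 genes was -0.73, where that of all genes on their own 3′-most exons was 0.71, and 4 of the 10 were at least 2-fold lower, where 24.5% of genes were. Against WT (L3), 7 were lower, where 28.8% of genes were, and the ratio of *myo-3* was 0.07 (-0.65 to 0.81). For R244H to WTR the ratios were -0.39 for *unc-54* (-0.60 to -0.17), -0.46 for *myo-3* (-1.51 to 0.63) and -0.82 for *unc-22* (-1.40 to -0.27), each opposite in sign to the ratio over all exons. The median for R244H to WTR was -0.30, where that of all genes was -0.44, and 0 of the 10 were 2-fold higher, where 22.6% of genes were. For R244H to WT (L4) *myo-2* alone was 2-fold lower on this exon, with a ratio of -1.23 (-2.74 to -0.14) from 7.5 and 36.5 reads. Of all genes 39.5% were 2-fold lower on their 3′-most exons in that comparison.

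**Figure D4:**
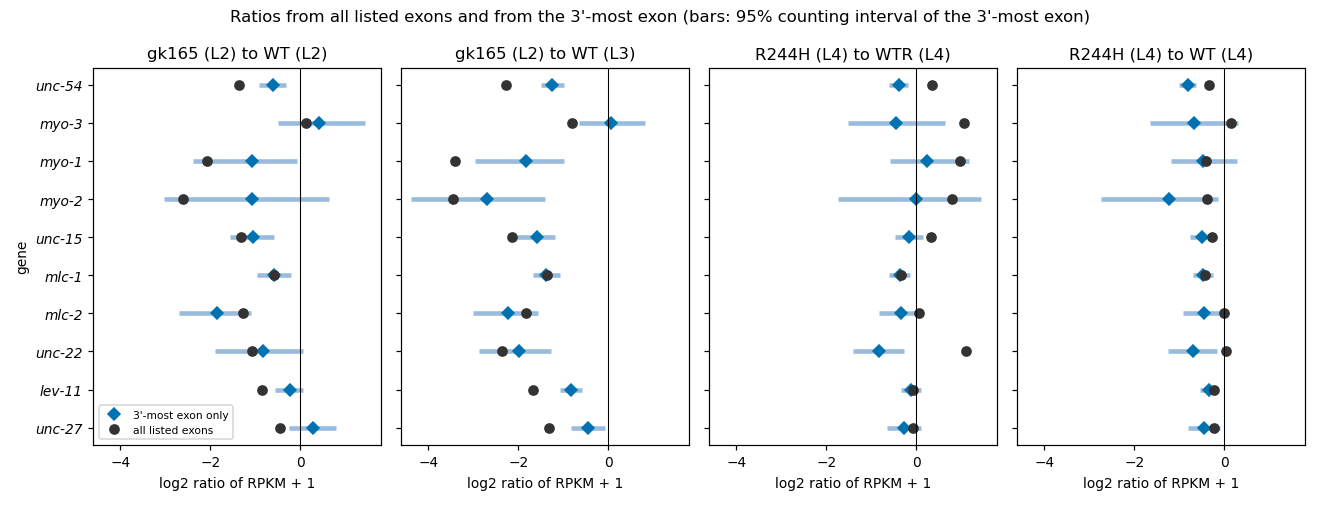
Log2 ratio of RPKM + 1 from all listed exons (circles) and from the 3′-most exon alone (diamonds, with 95% counting intervals as bars) for each gene and comparison. In the panel of R244H to WTR the diamonds of *myo-3* (-0.46) and *unc-22* (-0.82) lie left of the line at no change and their circles (1.06 and 1.12) right of it.

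Ratios between genes within a library show the make-up of the filament RNA. The summed level of the body wall heavy chains (*unc-54* and *myo-3*) was 13.4 times that of the pharyngeal ones (*myo-1* and *myo-2*) in gk165 (95% interval 9.96 to 18.7), against 5.50 in WT (L2) (4.83 to 6.52) and 5.02 in WT (L3) (4.76 to 5.45). It was 12.2 in R244H (11.1 to 13.95), against 17.2 in WTR (15.3 to 20.0) and 11.4 in WT (L4) (10.8 to 12.4). The gk165 interval did not overlap those of WT (L2) and WT (L3) and included the WT (L4) value. On the 3′-most exons the ratio was 15.3 in gk165 (9.51 to 27.4), against 10 in WT (L2) (7.24 to 16.1) and 6.95 in WT (L3) (6.52 to 9.31). There the gk165 interval overlapped that of WT (L2) and not that of WT (L3). It was 13.1 in R244H (9.66 to 21.2), against 19.2 in WTR (14.9 to 30.6) and 13.6 in WT (L4) (12.3 to 18.7), with overlapping intervals.

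Within the body wall pair, *unc-54* was 4.82 times as high as *myo-3* in gk165 (3.87 to 6.05), against 13.6 in WT (L2) (10.8 to 17.4) and 13.3 in WT (L3) (11.9 to 14.9). The ratio was 13.6 in R244H (11.98 to 15.5), against 22.3 in WTR (19.1 to 26.3) and 18.9 in WT (L4) (17.3 to 20.8). On the 3′-most exons the ratio was 4.70 in gk165 (3.04 to 7.29, with 25.5 reads of *myo-3*), against 9.65 in WT (L2) (5.81 to 17.2, with 16 reads) and 11.7 in WT (L3) (8.74 to 15.9, with 49 reads), so that on this exon the gk165 interval overlapped that of WT (L2) and not that of WT (L3). It was 16.9 in R244H (9.34 to 30.9, with 12.5 reads), against 16.0 in WTR (10.5 to 25.5) and 18.5 in WT (L4) (13.5 to 25.9), with overlapping intervals. The ratio of *unc-54* to its core protein *unc-15* was nearly the same in all 6 libraries, at 1.43 in gk165 (1.21 to 1.71), against 1.48 in WT (L2) and 1.58 in WT (L3), and 1.48 in R244H, against 1.46 in WTR and 1.55 in WT (L4). Over the 3′-most exons alone that ratio ranged more widely, between 2.74 in R244H and 4.21 in gk165. On the thin filament, *lev-11* was 0.90 times as high as *unc-27* in gk165 (0.74 to 1.10), against 1.18 in WT (L2) (0.996 to 1.42) and 1.16 in WT (L3) (1.07 to 1.26), and 1.13 in R244H, 1.12 in WTR and 1.13 in WT (L4). Between the light chains, *mlc-2* was 1.45 times as high as *mlc-1* in gk165 (1.13 to 1.87), against 2.33 in WT (L2) and 2.02 in WT (L3), and 2.05 in R244H (1.78 to 2.38), against 1.56 in WTR and 1.53 in WT (L4). On the 3′-most exons the light chain ratio was 0.57 in gk165 (0.33 to 0.94), against 1.38 in WT (L2) (1.003 to 1.90) and 1.05 in WT (L3) (0.88 to 1.24). There it was 0.86 in R244H, 0.84 in WTR and 0.84 in WT (L4), with overlapping intervals. The *lev-11* to *unc-27* ratio on these exons was 1.27 in gk165 (0.96 to 1.67), against 1.82 in WT (L2) (1.33 to 2.49) and 1.64 in WT (L3) (1.40 to 1.92).

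Tropomyosin RNA is spliced in several forms, and the exon rows allowed a view of them. The annotation holds 20 transcripts of *lev-11*, in which exons 8, 9 and 10 (119, 118 and 118 bases, numbered from the 3′ end) replace each other. They are part of 10, 4 and 6 transcripts. Of the reads on these 3 exons, exon 10 took 6.67% in gk165 (95% interval 0.82 to 22.1, of 30 reads), against 30.2% in WT (L2) (18.3 to 44.3, of 53 reads) and 22.9% in WT (L3) (18.2 to 28.1, of 293 reads). It took 10.6% in R244H (6.27 to 16.4, of 161 reads), against 6.25% in WTR (3.46 to 10.3, of 224 reads) and 6.72% in WT (L4) (4.35 to 9.84, of 357 reads). The share was thus lower in WT (L4) than in the younger wild-type larvae, beyond counting error. The gk165 interval overlapped those of WT (L2) and WT (L3), and the intervals of the 3 L4 libraries overlapped each other. In level, exon 10 had 46.0 RPKM in gk165, against 584 in WT (L2) and 1020 in WT (L3), and 368 in R244H, against 227 in WTR and 254 in WT (L4). Exon 8, the main form, had 836 RPKM in gk165, against 1284 in WT (L2) and 3325 in WT (L3). Exon 3, which only 2 of the transcripts hold, had 42.1 RPKM in gk165, against 300 in WT (L2) and 397 in WT (L3), and 178 in R244H, against 33.4 in WTR and 107 in WT (L4). Exons 5 and 6 also replace each other, and exon 6 had 0 of 215 reads in R244H, with an exact upper limit of 1.70%, against 1.28% in WTR and 2.16% in WT (L4).

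**Figure D5:**
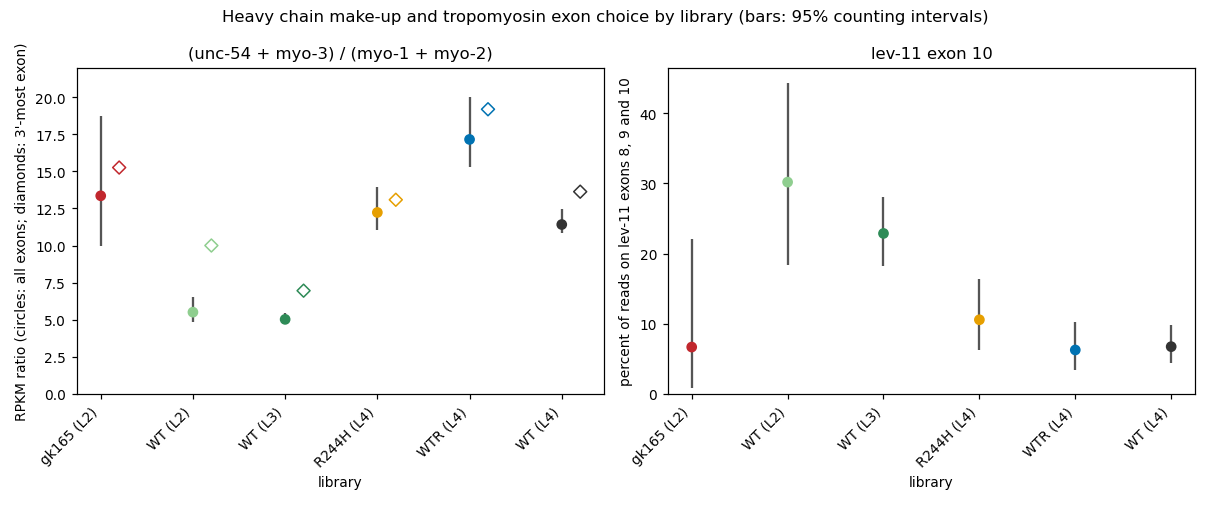
Left, ratio of the summed RPKM of *unc-54* and *myo-3* to that of *myo-1* and *myo-2* in each library (circles from all exons with 95% counting intervals, open diamonds from the 3′-most exons); right, percent of the reads on *lev-11* exons 8, 9 and 10 that fall on exon 10, with 95% intervals. The heavy chain ratio is 13.4 in gk165, beside 5.50 in WT (L2) and 5.02 in WT (L3), and the exon 10 share is 30.2% in WT (L2), 22.9% in WT (L3) and 6.72% in WT (L4).

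The partners of the filament genes were read from lists of muscle genes. Of 7 partners of the thick filament and its M-line, gk165 had 4 at 2-fold or more below WT (L2) and 0 above (median log2 ratio -1.23), and 7 were lower than in WT (L3). Over all genes 27.8% were lower and 34.2% higher than in WT (L2), and 34.7% lower than in WT (L3). The 4 partners below WT (L2) have between 971 and 3359 listed bases. Of genes under 1000 listed bases 24.8% were lower than in WT (L2), and of those from 1000 up to 4000 it was 29.8%. The other partners have 4000 or more listed bases. In that class 42.0% of genes were lower than in WT (L2) and 68.3% lower than in WT (L3). The myosin chaperone *unc-45* had a ratio of -1.71 and the essential light chain *mlc-3* of -1.23, while the titin-like *ttn-1* (-0.19) and the kinase gene *unc-82* (-0.60) were within 2-fold. On the 3′-most exon the ratio was -1.19 for *mlc-3* (-1.48 to -0.92), and the intervals of the other 3 included no change. Those were -0.77 for *unc-45* (2 and 3 reads), 0.95 for *ttn-1* (7 and 3 reads) and 1.29 for *unc-82* (5.5 and 1.83 reads). In R244H compared with WTR, 2 of the 7 were higher, the M-line gene *unc-96* (1.06) and *ttn-1* (1.03), and 0 were lower (median 0.83), where 21.9% of all genes were higher and 34.2% lower. The listed length was 1545 bases for *unc-96* and 47474 for *ttn-1*, and their intervals on the 3′-most exon included no change, with ratios of 1.36 (-0.49 to 3.60, from 8 and 4 reads) and 1.51 (-0.11 to 3.11, from 12 and 5.5 reads). The lowest were *unc-98* (-0.94) and *unc-45* (-0.69), both within 2-fold.

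Of 17 thin filament genes, 2 were higher and 4 lower in gk165 than in WT (L2) (median -0.47). These are shares near or under the 34.2% higher and 27.8% lower over all genes. The body wall troponin C gene *pat-10* (1.49) and the troponin T gene *tnt-3* (1.28) were the higher ones, and another troponin T gene, *tnt-4* (-2.73), and the troponin C gene *tnc-2* (-2.27, from 4 and 17 reads) were the lowest. The *pat-10* level was 5608 RPKM in gk165, against 2001 in WT (L2), so not every muscle gene was lower in this library. Against WT (L3), 0 of the 17 were higher and 8 were lower (background 34.7%). In R244H compared with WTR, 1 of the 17, *tnt-3*, was higher (1.42) and 1, the actin gene *act-2*, lower (-1.28), both shares under the background of 21.9% and 34.2%. On its 3′-most exon *tnt-3*, of 4564 listed bases, had 3 and 1.33 reads in these libraries. Over all exons *tnc-2* (0.66) and the troponin T gene *mup-2* (-0.85) were within 2-fold. The actin genes resemble each other closely, and their reads can be split among them.

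Dense bodies anchor the thin filaments to the cell membrane and the matrix outside. Of 15 genes of dense bodies and attachment, 0 were higher and 9 lower in gk165 than in WT (L2) (median -1.30), and 10 were lower than in WT (L3), beside a background of 27.8% lower than in WT (L2) and 34.7% lower than in WT (L3). The type IV collagen gene *let-2* (-2.54) and the beta integrin gene *pat-3* (-2.44) were lowest, and the kindlin gene *unc-112* (0.05) and the vinculin gene *deb-1* (0.04) did not differ by 2-fold. On the 3′-most exon the ratio was -1.97 for *let-2* (-3.12 to -0.998) and -1.33 for *pat-3* (-4.06 to 0.66). It was 0.38 for *unc-112* (-1.42 to 2.78) and 1.46 for *deb-1* (0.58 to 2.44). Besides *let-2* and *pat-3*, only *pat-2* (-2.44) and *dim-1* (-1.20) were at least 2-fold lower there, where 24.5% of all genes were. Fewer of the 15 were thus 2-fold lower on this exon than over all exons, and *deb-1* was 2-fold higher. In R244H compared with WTR, 1 of the 15 was higher, the perlecan gene *unc-52* (1.23), and 0 were lower (median 0.36), with 21.9% higher and 34.2% lower over all genes. On the 3′-most exon of *unc-52*, a gene of 12734 listed bases, the ratio was 0.00 (-1.81 to 1.72, from 6 and 8 reads). The collagen gene *emb-9* (0.64), *pat-3* (-0.46) and the parvin gene *pat-6* (-0.87) were within 2-fold.

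Of 11 genes of excitation and calcium handling, 9 were in the table. In gk165 compared with WT (L2), 0 were higher and 6 lower (median -1.11, background 34.2% higher and 27.8% lower), among them the potassium channel gene *slo-1* (-1.88, from 4 and 14 reads) and the GABA receptor gene *unc-49* (-1.73). The calsequestrin gene *csq-1* (0.42) and the calcium pump gene *sca-1* (-0.89) were within 2-fold. Of genes with 4000 or more listed bases, a class that holds *unc-49* and *sca-1*, 42.0% were lower. On the 3′-most exon the intervals of these genes included no change. The ratios there were -0.70 for *slo-1* (-3.10 to 1.24), -0.36 for *unc-49* (-2.32 to 1.32), 1.07 for *csq-1* (-0.04 to 2.29) and -0.42 for *sca-1* (-0.89 to 0.03). In R244H compared with WTR, 8 of these genes reached the minimum level, of which 3 were higher and 0 lower (median 0.75, background 21.9% and 34.2%). The 3 were the ryanodine receptor gene *unc-68* (1.09), the calcium channel gene *egl-19* (1.09) and the acetylcholine receptor gene *unc-38*, the last with 5 reads in R244H and 0 in WTR. The first pair have 14032 and 6220 listed bases, and on the 3′-most exon their intervals included no change, with ratios of 0.24 for *unc-68* (-0.82 to 1.30) and 1.18 for *egl-19* (-0.01 to 2.77). The channel subunit gene *unc-36* (0.32) and *csq-1* (-0.59) were within 2-fold. None of the muscle lists had a member 2-fold higher in R244H than in WT (L4), where 17.8% of all genes were. In that comparison 1 of the 7 thick filament partners and 2 of the 17 thin filament genes were 2-fold lower. The dense body and the excitation lists had 0 lower, where 33.8% of all genes were.

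Markers of other tissues also differed between the libraries. The summed level of 6 intestinal genes was 269 RPKM in gk165, against 720 in WT (L2) and 1493 in WT (L3), with the defining regulator *elt-2* at 0 in gk165. That 0 rests on few reads, since the 3′-most exon of *elt-2* had 0 in gk165 and 1 in WT (L2), with an interval that included no change. In gk165, 4 of the 6 were lower than in WT (L2) and 1 was higher. All these counts stand beside a background of 27.8% of genes lower and 34.2% higher in gk165. The summed level of 8 neuronal genes was 855 RPKM in gk165, against 587 in WT (L2) and 617 in WT (L3), with 1 higher and 2 lower than in WT (L2) and a median log2 ratio of -0.20 to WT (L2). The synaptobrevin gene *snb-1* made up 609.98 RPKM of that sum in gk165, against 261 in WT (L2), and the other 7 genes summed to 245.02 RPKM in gk165, against 325 in WT (L2). The sum of 4 hypodermal genes was 143 RPKM in gk165, against 155 in WT (L2) and 208 in WT (L3), with 2 higher and 1 lower than in WT (L2). The sum of 5 pharyngeal genes, without the muscle myosins, was 141 RPKM in gk165, against 145 in WT (L2) and 78.1 in WT (L3), with *ceh-22* at 0 in gk165 and *pha-4* at 0 in WT (L2), and 2 higher and 2 lower than in WT (L2). The members of this sum moved in opposite directions on few reads (0 to 15.5 per gene in gk165 and WT (L2)): *phat-1* had 8.74 RPKM in gk165, against 65.0 in WT (L2), and *phat-3* had 69.95 RPKM in gk165, against 10.7 in WT (L2). In R244H the intestinal sum was 1785 RPKM, against 1440 in WTR and 1708 in WT (L4), the neuronal sum 466, against 244.2 in WTR and 265 in WT (L4), and the pharyngeal sum 44.6, against 22.6 in WTR, where *ceh-22* and *pha-4* were at 0, and 40.0 in WT (L4), where *phat-5* was at 0. The hypodermal sum was 98.9 RPKM in R244H, against 42.5 in WTR, where *dpy-7* and *che-14* were at 0, and 36.2 in WT (L4). The 4 hypodermal genes had log2 ratios of R244H to WTR between -2.45 and 6.11. The highest was *dpy-7*, with 28.5 reads in R244H and 0 in WTR on its 3′-most exon, and it made up most of the R244H sum. The hypodermal sum without *dpy-7* was not taken. In R244H compared with WTR, 1 of 6 intestinal, 3 of 8 neuronal, 2 of 5 pharyngeal and 2 of 4 hypodermal genes were higher, and 2 hypodermal genes were lower, with 21.9% of all genes higher and 34.2% lower. The part of these differences in tissue make-up in the muscle values was not tested.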

How the data were processed

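The authors trimmed paired-end reads (Trim Galore 0.4.1, cutadapt), aligned them with TopHat2 2.1.0 (Bowtie2) to WBcel235 (Ensembl release 94) and used edgeR 3.26.8, per the labels and the study's methods. The library kit was directional. The exon filter, the offset in the values and the use of strand in counting are not given in the sources used here. The authors deposited log2 RPKM values per merged exon for 6 libraries and a mean log2 CPM column, which is the authors' mean and was not used.

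Reads were recovered from the deposited log2 values. Each value holds an offset of 0.54 CPM (0.25 reads in a library of mean size), and 97.2% of 236867 non-zero values fell within 0.01 of a multiple of 0.5 reads. Reads were pooled over the exons of a gene, in place of averaging exon values, which carry that offset. A pseudocount of 1 RPKM was added before each log2 ratio, with the authors' effective library sizes. Intervals are exact binomial (Clopper-Pearson, 95%). No test was made, since each condition has 1 library, and depth per library is given at the start of the report. Genes counted as higher or lower were those past 2-fold with at least 5 RPKM in 1 library.

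The 10 genes and the gene lists were chosen with earlier results of these data known. All 10 are named. From each other muscle list the text names the 2 highest and 2 lowest ratios of R244H to WTR and of gk165 to WT (L2), among genes with at least 10 reads in 1 of the libraries, and *unc-38*, named after its values were seen because it made up a small count. The 5 genes most like the 10 were found by Pearson correlation. Coordinates are those of the deposited table, and overlaps and transcripts used Ensembl release 115 of the same assembly. Sequences were not used here.

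Alternatives were another pseudocount, exon averages, single exons, centring, total reads as library size, omission of overlapping exons, other levels and thresholds, and, chosen after seeing the data, the 3′-most exon and the neuronal sum without *snb-1*. The scripts were tested on simulated data. Scripts ran in Python 3.11.15 with scipy 1.17.1, pandas 2.3.3, numpy 2.4.6 and matplotlib 3.10.9, beside bedtools 2.31.1.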

Additional observations from a re-analysis of the deposited data

How the results depend on the processing

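Each condition had 1 library, so no value has a replicate error, and low exons of gk165 and WT (L2) are limited by depth. No paired analysis was possible because each condition has 1 library and no replicate numbers are shared. Of 574 single-gene ratios recomputed under alternatives, 360 stayed within their counting interval, 209 moved outside it, and 5 that had passed 2-fold changed sign. The sign changes were *myo-3* (-0.46) and *unc-22* (-0.54) for R244H to WTR on the exon with the highest mean, *myo-3* (-0.46) and *unc-22* (-0.82) for the same comparison on the 3′-most exon, and *unc-22* for WTR to WT (L4) (0.13) on the 3′-most exon. On the 3′-most exon, chosen after seeing the data, the median of the 10 genes in gk165 was -0.73 against WT (L2) and -1.48 against WT (L3), and it was -0.48 for R244H to WT (L4) with 1 gene lower, -0.30 for R244H to WTR with 0 higher, -0.22 for WTR to WT (L4) with 1 lower, and -0.48 for WT (L4) to WT (L3) with 1 lower. Of all genes on that exon, 39.5% were lower for R244H to WT (L4) and 22.6% higher for R244H to WTR. The lower share was 19.4% for WTR to WT (L4) and 26.9% for WT (L4) to WT (L3). On the exon with the highest mean gk165 had a median of -2.43 against WT (L3), and the median was 0.11 for R244H to WTR with 0 higher, -0.30 for WTR to WT (L4) with 1 lower, and -0.34 for WT (L4) to WT (L3) with 1 lower, while R244H to WT (L4) had 1 lower and WT (L3) to WT (L2) 5 higher. With means of the deposited log2 values gk165 had a median of -2.46 against WT (L3), and the median was 0.66 for R244H to WTR with 4 higher, -0.93 for WTR to WT (L4) with 5 lower, and 0.16 for WT (L4) to WT (L3), while WT (L3) to WT (L2) had 5 higher. With means of linear RPKM, offset included, WTR to WT (L4) had 1 lower. Centred on the median of all genes, gk165 had -1.69 against WT (L3), while the median was 0.075 for R244H to WT (L4), 0.64 for R244H to WTR with 4 higher, and 0.42 for WT (L3) to WT (L2) with 0 higher. At a 3-fold threshold, gk165 to WT (L2) had 2 lower, R244H to WTR 0 higher, WTR to WT (L4) 0 lower and WT (L3) to WT (L2) 0 higher. With total reads as library size, WT (L3) to WT (L2) had a median of 0.49 with 0 higher, and the median of all genes was 0.08 in place of 0.43, with 21.9% of genes higher and 14.3% lower. The same change moved the median of all genes for gk165 to WT (L2) to -0.14 in place of 0.18, and 7 of the 10 genes were then lower. No median of the 10 genes moved past the counting limits and no count moved by over 1.5 times under a pseudocount of 0.1 RPKM, minimum levels of 1 or 20 RPKM, or without exons that overlap another gene. The cause of these shifts was not tested.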

Other observations

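Nonmuscle myosins, which work in cell division and transport, were read beside the filament genes. Of 7 such genes, gk165 had 5 at 2-fold or more below WT (L2) and 0 above (median log2 ratio -1.42), where 27.8% of all genes were lower and, of genes with 4000 or more listed bases, 42.0%. The listed lengths of the 7 run between 681 and 6415 bases. The class I myosin gene *hum-1* had a ratio of -2.65 (95% counting interval -9.14 to -0.93) from 1.5 and 11 reads, and the class VII gene *hum-6* of -2.46 (-9.01 to -0.76) from 1 and 10 reads, while the cytokinesis myosin *nmy-2* (-0.69) and the light chain *mlc-5* (-0.98) were within 2-fold. In R244H compared with WTR, 1 of the 7, *hum-6*, was higher (1.32; background 21.9%), and *hum-1* (0.44), the light chain *mlc-4* (-0.86) and *nmy-2* (-0.89) were within 2-fold.

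Among 1884 other genes with at least 10 reads in every library, those whose levels followed the mean of the 10 filament genes most closely over the 6 libraries were *mca-3* (Pearson r = 0.99), *R07H5.8* (0.98), *rpl-4* (0.98), *uaf-1* (0.98) and *hsp-3* (0.97). Each of the 10 followed that mean with an r between 0.71 (*myo-3*) and 0.97 (*lev-11*), in part because it is included in it. The 6 points share library depth and coverage, so these values are a description.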
